A study of Mus musculus with 12 samples.

Results

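The MHC class II presentation genes measured here are the 8 genes H2-Aa, H2-Ab1, H2-Eb1, H2-DMa, H2-DMb1, H2-DMb2, Cd74 and Ciita, chosen by name for their shared role and matched by Ensembl identifier to the 56941 genes of the count tables. All 8 were found. MHC class II molecules are pairs of an alpha and a beta chain that carry peptides from the endosomal compartment to the surface of macrophages, dendritic cells and B cells, where CD4+ T cells read them. The invariant chain Cd74 holds the new pair and fills its groove. H2-DM (an alpha chain, H2-DMa, with a beta chain, H2-DMb1 or H2-DMb2) trades the remnant of the invariant chain for peptide. The coactivator Ciita is known to act on the promoters of the other genes.

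RNA was sequenced from macrophages grown from bone marrow monocytes of C57BL/6J mice, either wild-type (WT) or lacking the hypoxia-responsive microRNA miR-210 (miR-210 KO), both born to heterozygous matings. The KO allele descends from a floxed miR-210 locus removed in the germline with Gata-1 Cre, so the deletion is present in every cell and not only in macrophages. All 4 groups had 7 days in medium with 30% L929-conditioned medium, the source of M-CSF, and 20% FBS. The M2 groups (WT M2, KO M2) then received 20 ng/mL IL-4, the cytokine of alternative activation, for 72 hours, and the M0 groups (WT M0, KO M0) were kept the same way without IL-4. Each group had 3 libraries, which are called by the number of their column. A separate batch name stands in the labels of each group, which means that a batch cannot be told apart from its group, and nothing in the labels says that the 3 libraries came from separate animals, so p-values measure the spread between these libraries, which may be technical.

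Library totals lay between 7930525 and 10167695 counts, and the 8 genes held between 0.0134% and 0.0322% of a library. Mir210 had 1 to 5 counts in each of the 6 WT libraries and 0 in each of the 6 KO libraries. All 8 macrophage markers (among them Adgre1, Csf1r and Cd68) were above 10 normalized counts in every group, while of 7 genes listed for B cells, which also carry class II, Cd22, Cd79b and Ighm were above 10 in every group and Ms4a1 had 0 counts in all 12 libraries. The other B cell genes, Cd79a, Pax5 and Ebf1, had means of at most 1.75 normalized counts in any group. The macrophage genes summed to 80138 to 90921 normalized counts in M0 and 69962 to 76527 in M2. Of them, 2 were called higher and 3 lower in M2 in WT, and 1 higher and 4 lower in KO. Lists of other cells also moved with IL-4. The summed level of 10 dendritic cell genes was 79.5 to 109.9 normalized counts in M0 and 5892 to 7102 in M2. Itgax, the integrin CD11c, made up most of the M2 sum, Zbtb46 and Batf3 were also called higher in M2 in both genotypes, and Flt3, Cd209a and Siglech had a mean under 1 normalized count in every group. Zbtb46, at 2 to 6 counts in M0 libraries, was admitted to those tests only through M2. Of 4 monocyte genes, Ccr2 was called higher in M2 in both genotypes and Ly6c2 had a mean under 1, with sums of 42.1 to 79.5 in WT M0, 67.3 to 103 in WT M2, 16.4 to 24.4 in KO M0 and 54.4 to 57.8 in KO M2. The monocytes had been isolated by removing other cells, dendritic cells and lymphocytes included, before culture. What part a shift in cell makeup had in the class II values was not tested, and in bulk RNA more cells of a type and more RNA per cell cannot be told apart. KO M2 library 3 was the lowest library of its group in 8 of 8 class II genes, so results that rest on it are given with and without it. WT M2 library 1 was the lowest of its group in 7 of 8. Genotype differences in M2 of the classical chains, Cd74 and Ciita are also given without WT M2 library 1.

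Levels below are normalized counts, that is, counts scaled by TMM size factors to the mean library size of all 12 libraries. Each was compared with the quasi-likelihood test of edgeR, and a gene was called at a Benjamini-Hochberg (BH) adjusted p under 0.05 together with a fold over 1.2, which is 0.263 on the log2 scale. The 4 pairwise comparisons share libraries, so their results are not independent of each other.

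**Figure D1:**
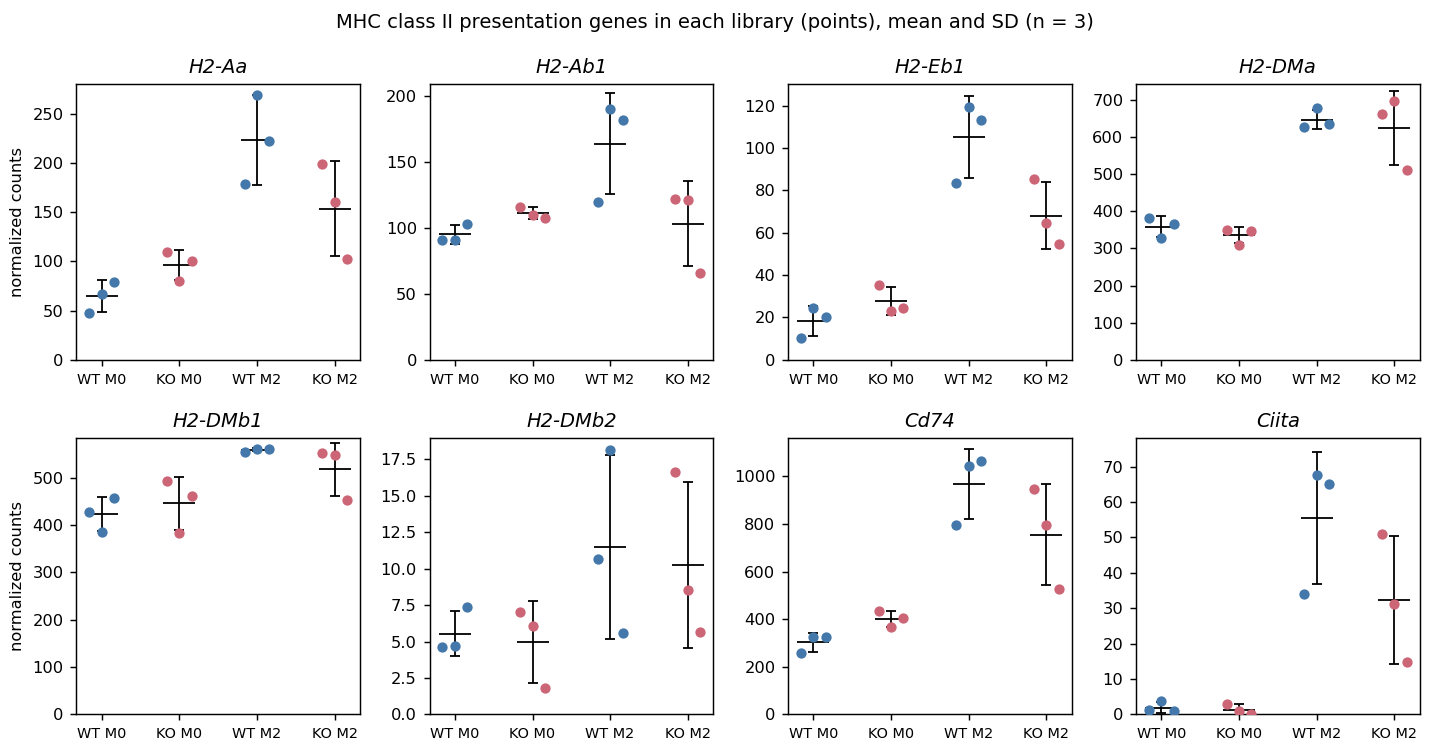
Normalized counts (linear axis from 0) of the 8 MHC class II presentation genes in each of the 12 libraries, as points in the order of the library numbers, with the mean and SD of the 3 libraries of each group. H2-Aa runs from 47.2 in WT M0 library 1 to 269 in WT M2 library 2, and KO M2 library 3, the right-hand point of each KO M2 column, is the lowest of its group in all 8 panels.

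The classical class II chains were present in M0 macrophages at low levels. H2-Aa, the alpha chain of the I-A molecule, had 47.2, 67.4 and 79.1 normalized counts in WT M0 libraries 1 to 3 and 109.9, 80.2 and 100.1 in KO M0. In M2 it had 178, 269 and 222 in WT and 199, 160.1 and 102 in KO. Every WT M2 library therefore lay above every WT M0 library, while KO M2 library 3 lay among the KO M0 values. The gene lies on the minus strand of GRCm39 chr17:34493404-34506798, and its 5′ part overlaps H2-Eb1 on the other strand, which stranded counting keeps apart.

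H2-Ab1, the beta chain that pairs with H2-Aa (GRCm39 chr17:34476663-34488393, plus strand), had 91.0, 90.7 and 103 normalized counts in WT M0 and 116, 109 and 107 in KO M0. After IL-4 it had 119.6, 189.9 and 182 in WT and 122, 121 and 65.8 in KO. The 3 KO M2 values straddled those of KO M0, with library 3 below all of them.

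H2-Eb1, the beta chain of the I-E molecule (GRCm39 chr17:34504236-34535648, plus strand), was per kilobase the scarcest of the classical chains. It had 10.4, 24.3 and 20.2 normalized counts in WT M0 and 35.3, 23.3 and 24.4 in KO M0. In M2 it had 83.3, 119 and 113 in WT and 85.4, 64.4 and 54.4 in KO, so all M2 libraries were above all M0 libraries. Its alpha chain partner H2-Ea, which mice of the C57BL/6 haplotype are known not to express, had 0 counts in all 12 libraries, as did H2-Eb2.

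Per kilobase of exon, the alpha chain of the peptide-exchange factor stood above the classical chains in every group. H2-DMa (GRCm39 chr17:34338515-34358958, plus strand) had 382, 326 and 367 normalized counts in WT M0 and 349, 310.3 and 346 in KO M0. In M2 it had 627, 677 and 636 in WT and 661, 697 and 512 in KO, with no M2 library among the M0 values.

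H2-DMb1 (GRCm39 chr17:34372046-34379204, plus strand) had the smallest rise of the tested members in WT. It had 427, 386 and 457 normalized counts in WT M0 and 492, 383 and 462 in KO M0. The WT M2 libraries sat close together at 555, 560.1 and 562, and the KO M2 libraries had 553, 548 and 454, so that KO M2 library 3 overlapped the M0 range.

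H2-DMb2, the neighbouring second beta chain gene (GRCm39 chr17:34362197-34370529, plus strand), was counted by a few reads only. In M0 its counts were 4, 5 and 8 for WT and 7, 7 and 2 for KO, and in M2 they were 10, 19 and 5 for WT and 15, 9 and 5 for KO. Both DM beta genes share sequence: 27.2% of the 50-base stretches of the H2-DMb1 transcript and 25.9% of those of H2-DMb2 recur elsewhere, chiefly in each other, so the split of reads between them is uncertain. H2-Oa and H2-Ob, whose product restrains H2-DM, were also scarce. H2-Oa had at most 1 count in a library, and H2-Ob had 5 to 11 counts in M0 libraries and 0 to 4 in M2 libraries, below the filter for testing in all 4 pairs.

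Cd74, the invariant chain, was per kilobase of annotated exon among the first 2 members in every group. It had 257, 326 and 324 normalized counts in WT M0 and 435, 366 and 405 in KO M0. After IL-4 it had 797, 1045 and 1063 in WT and 947, 794 and 525 in KO. The KO M0 libraries were all above the WT M0 libraries, and every M2 library was above every M0 library of its genotype.

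Ciita, the coactivator (GRCm39 chr16:10297923-10347694, plus strand), was nearly silent in M0. Its counts in M0 were 1, 4 and 1 for WT and 3, 1 and 0 for KO, against 32, 71 and 58 for WT M2 and 46, 33 and 13 for KO M2. All M2 libraries were above all M0 libraries, and the lowest of them was KO M2 library 3.

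Per kilobase of exon, the scale on which genes can be compared with each other, the order in WT M0 was H2-DMb1 (252 ± 21.1 normalized counts per kilobase, SD, n = 3), Cd74 (120.1 ± 15.5), H2-DMa (82.8 ± 6.66), H2-Ab1 (37.0 ± 2.72), H2-Aa (15.0 ± 3.75), H2-Eb1 (7.05 ± 2.76), H2-DMb2 (2.97 ± 0.839) and Ciita (0.176 ± 0.142). The same order held in KO M0 and KO M2, except that without KO M2 library 3 Cd74 (346 normalized counts per kilobase) stood above H2-DMb1 (327) in KO M2. In WT M2 Cd74 stood first, at 385 ± 59.0 normalized counts per kilobase, and H2-DMb1 second at 333 ± 2.03, a difference within the spread of Cd74. In KO M2 those same 2 neighbours had overlapping spreads, at 300.3 ± 84.8 for Cd74 and 308 ± 33.2 for H2-DMb1. In M2 of both genotypes, H2-Ab1 and H2-Aa, H2-Aa and H2-Eb1, and H2-DMb2 and Ciita were further neighbours whose spreads overlapped, at 40.1 ± 12.6 for H2-Ab1 and 35.8 ± 11.3 for H2-Aa in KO M2. These levels depend on the length used. With the canonical transcript in place of all annotated exons, H2-Aa in WT M2 came to 198 ± 40.3 normalized counts per kilobase in place of 52.0 ± 10.6, above H2-Ab1 at 135 ± 31.7, and H2-DMa stood above H2-DMb1 in WT M2, at 562 ± 23.1 against 398 ± 2.43. On that scale Cd74 stood below both DM chains in WT M0, at 211 ± 27.3 against H2-DMa at 312 ± 25.1 and H2-DMb1 at 302 ± 25.2. In KO M0 its mean was also the lowest of these, at 281 ± 24.0 against 291 ± 18.8 and 317 ± 40.3, but the spreads overlapped.

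The promoters of class II genes are known to share an X box, read by the RFX complex and CREB factors, and a Y box, read by NF-Y, at a fixed spacing, and Ciita acts through the proteins bound there. Promoter sequences of RefSeq (GRCm38.p6, 250 bases before to 50 after the start) were matched for 5 of the 8 genes. They were searched on both strands for CTNNNAAC, letters of the X box, and for TGATTGG, letters of the Y box. These letters were chosen after the promoters of the members had been read, so that members hold them is no finding. The 4 stretches with the ordered pair are shown because they let the spacing be seen beside the genes' values, with the X box letters and the Y box letters in capitals, 5′ to 3′. They come, in GRCm38.p6, from chr17:34287814-34287967, minus strand for H2-Aa, chr17:34305713-34305865, plus strand for H2-Eb1, chr17:34153034-34153187, plus strand for H2-DMb1 and chr17:34145063-34145216, plus strand for H2-DMb2.
H2-Aa: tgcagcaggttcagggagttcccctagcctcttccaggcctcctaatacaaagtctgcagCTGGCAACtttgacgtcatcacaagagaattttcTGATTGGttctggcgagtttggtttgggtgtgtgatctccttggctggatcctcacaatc
H2-Eb1: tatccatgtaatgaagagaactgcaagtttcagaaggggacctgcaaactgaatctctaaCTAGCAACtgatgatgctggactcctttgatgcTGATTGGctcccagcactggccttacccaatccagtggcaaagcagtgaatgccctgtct
H2-DMb1: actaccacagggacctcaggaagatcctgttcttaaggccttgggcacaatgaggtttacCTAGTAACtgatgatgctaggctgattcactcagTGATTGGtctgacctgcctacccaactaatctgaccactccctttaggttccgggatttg
H2-DMb2: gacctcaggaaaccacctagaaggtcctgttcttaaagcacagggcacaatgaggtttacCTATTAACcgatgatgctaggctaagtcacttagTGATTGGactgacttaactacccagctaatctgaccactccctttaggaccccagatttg

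CTNNNAAC alone was in 41.1% and TGATTGG alone in 7.82% of 32851 RefSeq promoters, while the pair on one strand, with starts 20 to 40 bases apart, was in 51 of them, or 0.155%. The starts lay 34 bases apart in H2-Aa, H2-DMb1 and H2-DMb2 and 33 bases apart in H2-Eb1. The promoter of H2-Ob, at 0 to 11 counts, also held the pair, 31 bases apart, and H2-DMb2, at 2 to 19 counts, held the same spacing as its abundant neighbour H2-DMb1. Neither of the 2 RefSeq starts of H2-DMa, which was called higher in M2 in both genotypes, held the pair in its window. A match is a description of letters and not of a bound site.

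Class II transcripts were higher in WT macrophages after IL-4. All 7 members that passed the filter on low counts were called higher in WT M2 than in WT M0, with a median log2 fold change of 1.68 against 0 over all genes tested. One of the 7, Ciita, had 1 to 4 counts in WT M0 and passed that filter only through its M2 libraries. The direction of its change was thus set by the filter. In this comparison 6136 of 14266 genes, or 43%, were called in either direction with 22.1% called higher and 20.9% lower. The rise was greatest for the coactivator and for the scarce H2-Eb1, and smallest for H2-DMb1. H2-DMb2 did not pass the filter. The DESeq2 Wald test, which called 29.6% of its genes, also called these 7.

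Among the classical chains, H2-Eb1 rose 5.61-fold in WT (log2 fold change 2.49, SE 0.24, n = 3 and 3, edgeR quasi-likelihood test with BH adjustment, adjusted p = 1.9e-06). H2-Aa rose 3.43-fold (1.78, SE 0.18, edgeR BH-adjusted p = 2.8e-06). H2-Ab1, its partner chain, rose 1.73-fold (0.79, SE 0.16, edgeR BH-adjusted p = 0.0014), a smaller step. For each of these, the 3 libraries of WT M2 were all above those of WT M0. That the groups did not overlap was the case for all 7 tested members and for 57% of all genes tested. The 7 include Ciita, which was admitted only through its M2 libraries.

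The accessory genes followed in the same direction. Cd74 rose 3.20-fold in WT (log2 fold change 1.68, SE 0.12, edgeR BH-adjusted p = 6.4e-08), close to the value of H2-Aa. H2-DMa rose 1.81-fold (0.86, SE 0.08, edgeR BH-adjusted p = 9.3e-07) and H2-DMb1 1.33-fold (0.41, SE 0.08, edgeR BH-adjusted p = 0.00068). Ciita rose by 4.73 on the log2 scale (SE 0.46, edgeR BH-adjusted p = 1.8e-06). From its raw counts, 161 in the WT M2 libraries and 6 in the WT M0 libraries, the ratio after scaling was 28.2, with an exact 95% interval of 12.7 to 78.0 that covers counting error only. The corresponding ratio of H2-DMb2 was 2.10 (exact 95% interval 1.14 to 4.01, counting error only), and its library ranges overlapped.

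In miR-210 KO macrophages the response to IL-4 was called for fewer members. Of the 7 tested, 5 were called higher in KO M2 than in KO M0, with a median log2 fold change of 0.90 against -0.01 over all genes tested. Ciita again passed the filter only through its M2 libraries, so that the direction of its change was set by the filter. Here 4842 of 14331 genes, or 33.8%, were called in either direction with 17.4% called higher and 16.4% lower, and the DESeq2 Wald test called 24.5% of its genes and 5 members. H2-Eb1 rose 2.48-fold (1.31, SE 0.24, edgeR BH-adjusted p = 0.00099), Cd74 1.88-fold (0.91, SE 0.17, edgeR BH-adjusted p = 0.00089) and H2-DMa 1.86-fold (0.90, SE 0.12, edgeR BH-adjusted p = 5.3e-05). Ciita rose by 4.59 (SE 0.69, edgeR BH-adjusted p = 0.00018), with 92 counts against 4, a ratio of 26.4 after scaling (exact 95% interval 9.98 to 99.0, counting error only). That ratio was 32.9 without KO M2 library 3 (exact 95% interval 12.4 to 124). For these 4 genes the KO M2 and KO M0 libraries did not overlap, as for 46.3% of all genes tested. Without KO M2 library 3 all 4 were still called, with log2 fold changes of 1.43 for H2-Eb1, 1.10 for Cd74, 1.01 for H2-DMa and 4.91 for Ciita.

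H2-Aa was called 1.60-fold higher in KO M2 (log2 fold change 0.67, SE 0.21, edgeR BH-adjusted p = 0.027), with overlapping libraries. That call was lost when KO M0 library 2 (0.55, edgeR BH-adjusted p = 0.073), KO M0 library 3 (0.69, adjusted p = 0.056), KO M2 library 1 (0.45, adjusted p = 0.16) or KO M2 library 2 (0.63, adjusted p = 0.088) was left out, and without KO M2 library 3 it was 0.88 (adjusted p = 0.0017). H2-Ab1 had a log2 difference of -0.10 (SE 0.20, edgeR BH-adjusted p = 0.75), which became 0.12 without KO M2 library 3. H2-DMb1 had 0.22 (SE 0.11, edgeR BH-adjusted p = 0.16) and 0.29 without that library. Neither was called.

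**Figure D2:**
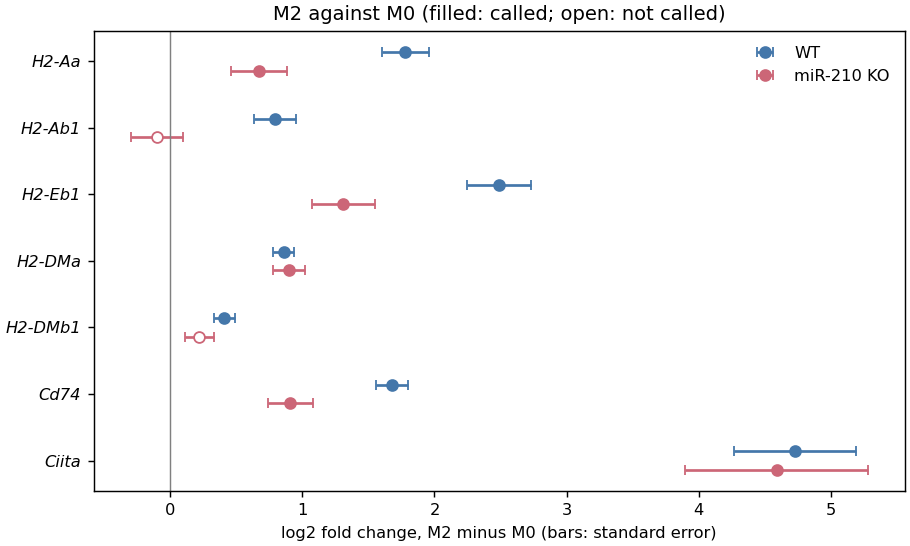
Log2 fold change of M2 against M0 for the 7 tested genes in WT (blue) and miR-210 KO (red), with the standard error as the bar; filled points were called and open points were not. The DM alpha chain H2-DMa has almost the same value in both genotypes (0.86 and 0.90), whereas H2-Aa stands at 1.78 in WT and 0.67 in KO.

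Whether the response to IL-4 differed between genotypes was tested by the interaction term over all 12 libraries. None of the 8 members was called, and 4 of them had an unadjusted p under 0.05. Among all genes edgeR called 0 of 14825, or 0%, with 1327 at an unadjusted p under 0.05, and the DESeq2 Wald test called 91 genes (0.975%) and none of the members. DESeq2 gave no adjusted p for H2-Eb1, H2-DMb2 and Ciita, so these could not be called by it. For the other members its adjusted p ran from 0.062 (H2-Aa) to 0.98 (H2-DMa). The 4 members with an unadjusted p under 0.05 in edgeR were H2-Aa, H2-Ab1, H2-Eb1 and Cd74. Their interaction on the log2 scale, the KO response minus the WT response, was -1.10 for H2-Aa (SE 0.32, edgeR BH-adjusted p = 0.25) and -0.76 for Cd74 (SE 0.24, adjusted p = 0.29). For H2-Eb1 it was -1.18 (SE 0.38, edgeR BH-adjusted p = 0.32) and for H2-Ab1 -0.88 (SE 0.28, adjusted p = 0.32). Without KO M2 library 3 these became -0.89, -0.57, -1.05 and -0.66 in the same order. Without WT M2 library 1 they were -1.24, -0.89, -1.32 and -1.07, and none was called. The DM chains stood near 0, at 0.05 for H2-DMa (SE 0.15, edgeR BH-adjusted p = 0.96) and -0.18 for H2-DMb1 (SE 0.14, adjusted p = 0.75). For Ciita and H2-DMb2 the counts in M0 were too few for a usable estimate, with an SE of 2.13 for Ciita and 1.00 for H2-DMb2. These p-values depend on the filter: when genes with low counts were kept in the fit, H2-Aa, H2-Ab1, H2-Eb1 and Cd74 were called, with edgeR BH-adjusted p between 3.2e-06 and 0.026, among 341 of 28668 genes (1.19%). Their standard errors were smaller in that fit, at 0.21 against 0.32 for H2-Aa and 0.13 against 0.24 for Cd74. That fit was not run without KO M2 library 3.

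Between genotypes in M0, no class II gene was called. Of the 6 members tested, 5 had a positive log2 difference, KO minus WT, and the median was 0.32 against 0 over all genes tested. In that comparison 65 of 14089 genes, or 0.461%, were called by edgeR (0.22% higher in KO and 0.241% lower), 1410 genes and 2 members (H2-Aa and Cd74) had an unadjusted p under 0.05, and the DESeq2 Wald test called 205 genes (1.51%) and none of the members. Cd74 had a fitted fold of 1.33, KO over WT, that is, a log2 difference of 0.41 (SE 0.11, edgeR BH-adjusted p = 0.19). H2-Aa had 0.57 (SE 0.21, edgeR BH-adjusted p = 0.36). The libraries of the 2 genotypes did not overlap for H2-Aa, H2-Ab1 and Cd74, 3 of the 6 tested members, and for 14.4% of all genes tested. H2-Ab1 had 0.22 (SE 0.14, edgeR BH-adjusted p = 0.66), H2-Eb1 0.55 (SE 0.32, adjusted p = 0.64), H2-DMa -0.10 (SE 0.10, adjusted p = 0.80) and H2-DMb1 0.07 (SE 0.11, adjusted p = 0.88). Ciita and H2-DMb2 were not tested. With genes of low counts kept in the fit, Cd74 was called (edgeR BH-adjusted p = 0.018), among 532 of 26255 genes (2.03%). Marker lists of other cells also lay apart in M0. The summed level of 9 neutrophil genes was 563 to 787 normalized counts in WT M0 and 1015 to 1255 in KO M0, nearly all of it from Mmp8 (means of 695 and 1082), while Ly6g was at 0 and S100a9 had means of 4.01 and 0. The sums of the monocyte genes (42.1 to 79.5 and 16.4 to 24.4) and of 6 fibroblast genes (9.22 to 12.2 and 16.4 to 22.6) did not overlap either. No gene of these 3 lists was called by edgeR, and the DESeq2 Wald test called Mmp8 (log2 difference 0.64, adjusted p = 0.00083) and Ccr2 (-1.36, adjusted p = 0.022). Their part in the class II values was not tested.

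Between genotypes in M2, again no class II gene was called, and all 7 tested members had a negative log2 difference. The median was -0.54 against 0 over all genes tested. Here edgeR called 137 of 13980 genes, or 0.98%, with 0.408% of genes higher and 0.572% lower in KO. An unadjusted p under 0.05 was reached by 1498 genes and by 5 members (H2-Aa, H2-Ab1, H2-Eb1, Cd74 and Ciita), and the DESeq2 Wald test called 135 genes (0.912%) and none of the members. The summed dendritic cell list also lay apart, at 6480 to 7102 normalized counts in WT M2 and 5892 to 6357 in KO M2. The 7 B cell genes summed to 417 to 445 normalized counts in WT M2 and 491 to 555 in KO M2, with Cd22 at means of 340 and 408 and Ms4a1 at 0. The sums of the monocyte genes (67.3 to 103 and 54.4 to 57.8), of 7 T cell genes (28.0 to 41.0 and 18.0 to 26.6) and of the 8 macrophage genes (69962 to 72030 and 72085 to 76527) did not overlap either. Most of the monocyte sums was Ccr2 (means of 82.9 and 52.5). The T cell sums came mainly from Cd4 (15.2 and 10.1), Cd2 (10.9 and 4.69) and Lck (6.62 and 7.23). The T cell receptor genes Cd3e and Cd3g were at 0, with Cd3d at 0.636 and 0 and Trac at 0 and 0.378. No gene of these lists was called by edgeR between genotypes in M2. Without KO M2 library 3, Mertk of the macrophage list was called higher in KO (0.31, SE 0.07, edgeR BH-adjusted p = 0.033). The part of these lists in the class II values was not tested.

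The 3 classical chains differed by similar amounts in M2. H2-Ab1 had a log2 difference of -0.65, KO minus WT (SE 0.20, edgeR BH-adjusted p = 0.18). H2-Eb1 had -0.63 (SE 0.18, edgeR BH-adjusted p = 0.13) and H2-Aa -0.54 (SE 0.18, edgeR BH-adjusted p = 0.25). The libraries of the genotypes overlapped for all 3 genes. Without KO M2 library 3 the differences were -0.43, -0.50 and -0.33. Without WT M2 library 1 they were -0.83, -0.76 and -0.67 (edgeR BH-adjusted p = 0.064, 0.074 and 0.17), and none was called. When genes with low counts were kept in the fit, H2-Aa, H2-Ab1, H2-Eb1, Cd74 and Ciita were called lower, with edgeR BH-adjusted p between 1e-04 and 0.011 and the same log2 differences to within 0.01, among 360 of 26165 genes (1.38%). The standard errors were smaller in that fit, at 0.11 against 0.18 for H2-Aa and 0.07 against 0.15 for Cd74. That fit was not run without KO M2 library 3.

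Cd74 had -0.35 in M2 (SE 0.15, edgeR BH-adjusted p = 0.40), -0.15 without KO M2 library 3 and -0.47 without WT M2 library 1. Ciita had -0.78 (SE 0.32, edgeR BH-adjusted p = 0.38), with 92 counts in KO M2 against 161 in WT M2. Its difference was -0.46 without KO M2 library 3 and -1.02 without WT M2 library 1. The ratio from the summed counts of Ciita was 0.579 after scaling (exact 95% interval 0.443 to 0.753, counting error only) and 0.721 without KO M2 library 3 (exact 95% interval 0.544 to 0.95), intervals that leave out the spread between libraries. H2-DMb1 was the 1 member of the 7 tested whose M2 libraries did not overlap between genotypes, against 16% of all genes tested, and its difference was -0.10 (SE 0.08, edgeR BH-adjusted p = 0.72), and -0.02 without KO M2 library 3. H2-DMa had -0.04 (SE 0.09, edgeR BH-adjusted p = 0.92), and 0.08 without KO M2 library 3.

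**Figure D3:**
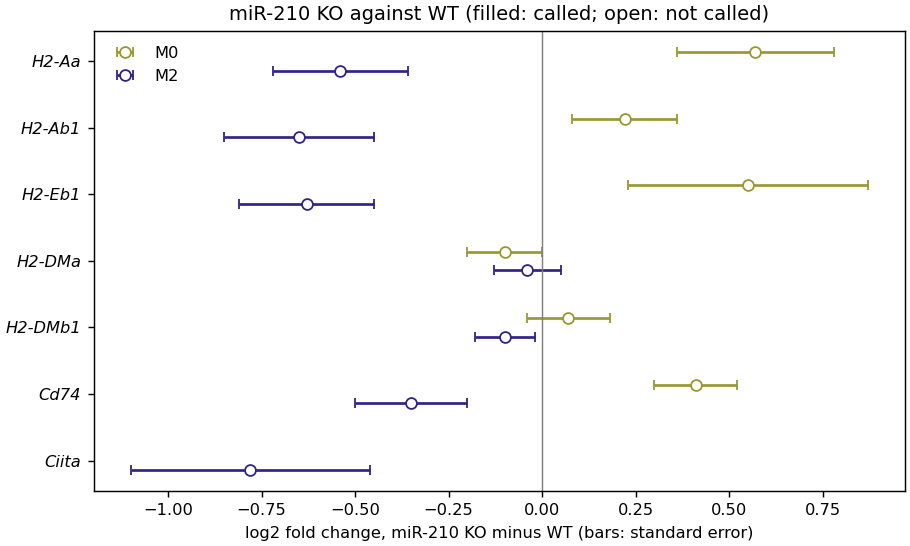
Log2 difference of miR-210 KO minus WT in M0 (olive) and in M2 (dark blue), with the standard error as the bar; all points are open because no gene was called. H2-Aa, H2-Eb1 and Cd74 lie right of 0 in M0 (0.57, 0.55 and 0.41) and left of it in M2 (-0.54, -0.63 and -0.35), and both DM chains lie within 0.10 of 0 in both states.

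**Figure D4:**
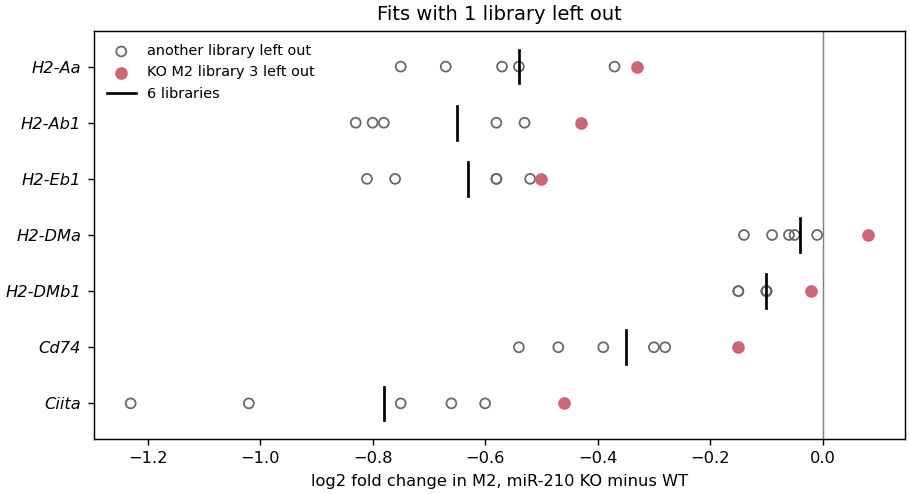
Log2 difference of miR-210 KO minus WT in M2 for each of the 7 tested genes, from all 6 libraries (black line) and from the 6 fits that leave out 1 library each (circles); the red circle is the fit without KO M2 library 3. For all 7 genes the red circle is the right-most one, and H2-Ab1 moves from -0.65 to -0.43. That library was singled out as the lowest of KO M2 in these genes, so a shift to the right follows from the choice.

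The members also varied together from library to library. Over the 12 libraries Pearson's r with H2-Aa on the log2 scale was 0.98 for Cd74, 0.97 for H2-Eb1, 0.89 for H2-DMb1, 0.86 for Ciita, 0.84 for H2-DMa, 0.75 for H2-Ab1 and 0.64 for H2-DMb2. After each value was taken as a deviation from its group mean, r was 0.94 for Cd74, 0.83 for H2-Eb1 and 0.81 for H2-Ab1, and between 0.50 and 0.65 for the other members. Without KO M2 library 3 the values of deviations were 0.91, 0.86 and 0.64 for those 3 genes in that order, and 0.45 for H2-DMb1, 0.40 for Ciita, 0.34 for H2-DMb2 and 0.12 for H2-DMa. These points share library and depth, and the values are a description.

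The balance between the classical and the DM chains stood higher in WT M2 than in WT M0. The summed normalized counts of H2-Aa, H2-Ab1 and H2-Eb1 divided by those of H2-DMa and H2-DMb1 gave 0.228 ± 0.0396 (SD, n = 3) in WT M0 and 0.407 ± 0.0761 in WT M2, and the lowest WT M2 library (0.322) was above the highest WT M0 library (0.256). In KO the ratio was 0.302 ± 0.0129 in M0 and 0.281 ± 0.0526 in M2, and the ranges overlapped. The KO M2 mean was 0.306 without library 3, so which of the KO means was higher turned on that library. The ratio of Cd74 to H2-Aa differed less, from 4.19 ± 0.333 in KO M0 to 4.96 ± 0.185 in KO M2 (4.86 without library 3). Both ratios are in normalized counts not scaled for length and were not tested.

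The genes whose pattern was most like the mean of H2-Aa, H2-Ab1, H2-Eb1 and Cd74 over the 12 libraries, among 11076 protein-coding genes with an average over 10 normalized counts, were Acsl3 (r = 0.966), Scarb1 (0.961), H2ac7 (0.956), Cers5 (0.953) and Riox1 (0.952). Acsl3, an acyl-CoA synthetase, had mean levels of 87.9 normalized counts in WT M0, 89.9 in KO M0, 179 in WT M2 and 138 in KO M2. By deviations from group means the first 5 were Cfp (0.953), Ptpa (0.949), Arhgef10l (0.946), Acsl3 (0.945) and Vps16 (0.937). Cfp, properdin of the complement system, had lower group means in M2 than in M0, while Acsl3 was among the first 5 by both measures. These choices rested on KO M2 library 3. Without it none of the genes named for the 12 libraries was among the first 5, and by deviations the first 5 were Man1c1 (0.941), Xlr4b, Slc30a4, Ptpa and Armc6.

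Among the factors that act on class II promoters or on Ciita, 14 genes were tested, and most were not called. In this list, 2 were called higher and 1 lower in WT M2 than in WT M0, and 3 higher and 1 lower in KO (medians 0.04 and 0.22). Irf4, a lymphoid and myeloid regulator known to be raised by IL-4, rose by 3.62 (SE 0.16) on the log2 scale in WT and by 3.83 (SE 0.19) in KO. Prdm1, known as a repressor of Ciita, rose by 0.88 (SE 0.12) and 1.11 (SE 0.13). Irf8 had log2 fold changes of -0.78 (SE 0.07) and -0.72 (SE 0.07) and was called lower in both. Irf1 was called higher in KO M2 (0.30, SE 0.10) and had -0.03 (SE 0.11) in WT, without a call. The promoter-bound proteins Rfx5, Rfxap, Rfxank, Nfya, Nfyb and Nfyc, with log2 differences between -0.31 and 0.31, were called in neither genotype.

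Of the 7 genes of the interferon gamma receptor pathway, 5 were called higher and 1 lower in M2 in each genotype. Socs1, the feedback inhibitor of JAK kinases, rose by 4.54 (SE 0.12) in WT and 4.15 (SE 0.12) in KO. Jak2 rose by 1.13 (SE 0.07) and 1.29 (SE 0.08), the phosphatase Ptpn2 by 0.87 and 0.83, and the receptor chains Ifngr1 by 0.58 and 0.69 and Ifngr2 by 0.45 and 0.61. Socs3 fell by 0.96 (SE 0.18) in WT and fell by 1.45 (SE 0.32) in KO. So both receptor chains, Socs1 and Ptpn2 were higher in M2, while Socs3, another inhibitor, was lower.

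Of the 11 genes that process antigen or the invariant chain, 6 were called higher and 4 lower in M2 in each genotype. Ctss, the protease that trims the invariant chain in many antigen-presenting cells, rose by 0.69 (SE 0.09) in WT and 0.73 (SE 0.09) in KO. Ctsl, another cysteine cathepsin, rose by 1.37 (SE 0.07) and 1.47 (SE 0.08), Ifi30, the lysosomal thiol reductase GILT, by 1.58 (SE 0.07) and 1.59 (SE 0.10), and the aspartic protease Napsa by 2.49 and 2.89 (SE 0.19 in both). Cst3, an inhibitor of cysteine cathepsins, rose by 1.00 and 1.05. The asparaginyl endopeptidase Lgmn fell by 0.63 (SE 0.08) in WT and fell by 0.42 (SE 0.09) in KO, and Ctsb, Ctsd and Ctsh were also called lower. Members of this list therefore moved both ways with IL-4.

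Of the 8 genes of class II turnover and traffic, 3 were called higher and 2 lower in WT M2, and 3 higher and none lower in KO M2. The tetraspanins Cd9 and Cd63, which sit with class II in membranes, rose by 1.94 (SE 0.08) and 0.64 (SE 0.08) in WT and by 1.69 (SE 0.09) and 0.74 (SE 0.09) in KO. Marchf1, the ubiquitin ligase that sends surface class II to degradation, fell by 0.30 (SE 0.10, edgeR BH-adjusted p = 0.020) in WT, against a log2 difference of 0.10 (SE 0.08, edgeR BH-adjusted p = 0.34) in KO.

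Between genotypes, no gene of these 4 lists was called by edgeR in M0 or in M2, and none in the interaction. Their median log2 differences lay between -0.09 and 0.06 in both states. Without KO M2 library 3 the counts of called genes in KO M2 against KO M0 were as given for these lists, except that Ctsh was not called (-0.26, SE 0.11, edgeR BH-adjusted p = 0.086), and no gene of them was called between genotypes in M2 or in the interaction. Of the alternative activation markers Arg1, Retnla, Mrc1 and Chil3, all 4 were called higher in M2 in each genotype, and Arg1 was also called higher in KO M0 than in WT M0 (0.85, SE 0.15, edgeR BH-adjusted p = 0.034). Retnla, with 0 counts in the M0 libraries, and Chil3, with 0 to 3, passed the filter only through M2. The direction of their change was thus set by the filter.

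**Figure D5:**
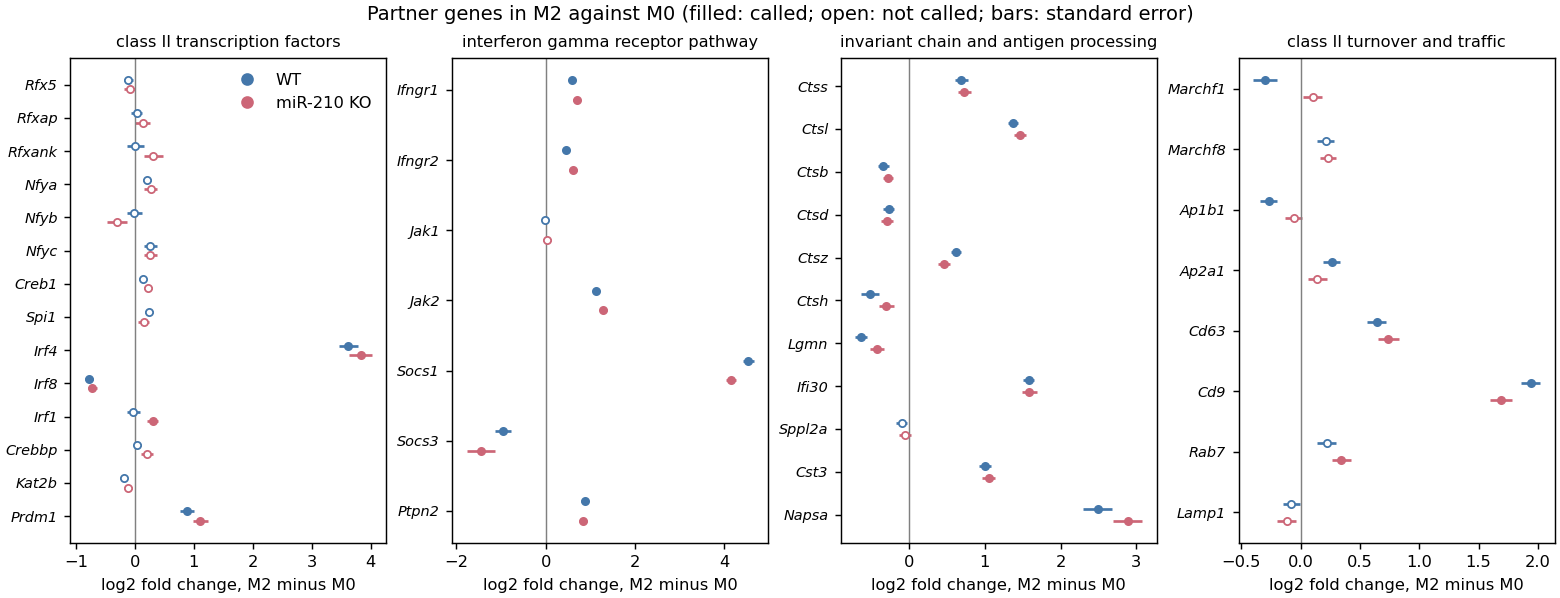
Log2 fold change of M2 against M0 in WT (blue) and miR-210 KO (red) for the genes of 4 partner lists, with the standard error as the bar; filled points were called. Irf4 and Socs1 lie far to the right (3.62 and 4.54 in WT), Socs3 to the left (-0.96), and Rfx5 and the NF-Y genes stay near 0.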

How the data were processed

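RNA-seq libraries of 12 macrophage cultures were compared, 3 in each of 4 groups, and columns of the tables were assigned to groups by their names, since library numbers could not be tied to samples. The authors trimmed reads with Trimmomatic, removed duplicates with Picard, aligned to GRCm39 with STAR and deposited strand-specific featureCounts counts per gene, a table for each pair of groups. Removing duplicates lowers the counts of abundant genes more than those of scarce ones. The authors also deposited normalized tables, whose signal values are counts divided by DESeq2 size factors set per pair (genes under 5 counts over the pair left out), used here only for levels as an alternative.

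Counts were tested in R 4.3.3 with edgeR 4.0.16 (TMM, filterByExpr, glmQLFTest, BH over all genes tested), on 6 libraries per pair and on 12 for the interaction, which had no fold limit. DESeq2 1.42.0, other scalings and filters, a replicate block, a fit to all 12 libraries and leaving out each library were alternatives. The standard error is the log2 fold change divided by the square root of F. Ratios of summed counts have exact (Clopper-Pearson) 95% intervals. No pair of libraries was alike within counting noise. GENCODE matched 56323 of 56941 identifiers. Tests were tried on simulated counts. The genes, lists and motif letters were chosen with earlier results of these data known, and the named genes are all members, up to 6 called genes per list and comparison, and the 5 genes most like the members. Some genes first put on the lists are not reported here.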

Additional observations from a re-analysis of the deposited data

How the results depend on the processing

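With 3 libraries a group and under 300 normalized counts for the classical chains, a difference of the size seen between genotypes was not called, which does not show that the genotypes had equal levels. For M2 against M0, 7 members were called in WT and 5 in KO under all alternatives that kept every library, and H2-DMb2, which 3 of them also tested, was not called. Without a filter on low counts, 1 member (Cd74) was called between genotypes in M0, 5 in M2 and 4 in the interaction, and with the replicate block 1 was called in M2 (H2-Ab1, -0.66, edgeR BH-adjusted p = 0.04). The cause was not tested. The block has no known basis: same-numbered libraries of the genotypes had deviations correlating at 0.01 to 0.34 in M0 and -0.06 to 0.09 in M2. Leaving out 1 library gave 0 members in either genotype comparison and in the interaction, 7 to 8 in WT (H2-DMb2 joined without WT M2 library 3) and 4 to 5 in KO. Directions changed for values near 0: H2-DMb1 in M0 (0 to 0.18), H2-DMa in M2 (-0.14 to 0.08) and H2-Ab1 in KO M2 against M0 (-0.25 to 0.12). In the interaction they changed for H2-DMa (-0.05 to 0.16), Ciita (-1.03 to 1.11) and H2-DMb2 (-0.51 to 0.50, 0 with upper-quartile scaling and 0.03 with the block). Of the other values of single members, 457 kept their direction and side of the threshold, 11 became called and 4 lost a call. Calls over all genes without leaving out a library ran from 64 to 532 in M0, 60 to 360 in M2 and 0 to 341 in the interaction, and leaving out 1 library gave 20 to 302, 53 to 215 and 0 to 77. With another transcript length, 25 of 32 levels per kilobase moved by more than 1 SD.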
